A study of Mus musculus with 2 samples.

Results

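Spliceosomal small nuclear RNAs (snRNAs) were measured by total RNA-seq in the adrenal gland of 2 aged female mice. The genes described here carry the biotype snRNA in GENCODE M21 and had an expected count, the deposited estimate of reads per gene, of at least 1 in both gene tables. By this rule 30 of 1385 annotated snRNA genes were kept, among 55536 genes of all kinds. They comprised 12 genes of the U1 family, 12 of U2, 2 of U4, 1 each of U11 and U12, 1 of U6atac, and Gm25153, which was placed in no family. U5 and U6 had no gene that met the rule. Both mice were B6CASTF1/J, hybrids of the strains C57BL/6J and CAST/EiJ, aged 18 to 20 months. The series has 1 library per animal; 300 ng of RNA went into a strand-keeping kit after ribosomal RNA was reduced, and ERCC spike-ins (synthetic RNAs) were added. The animals form 1 group with no treatment and no second genotype, so no group comparison and no test was made, and SDs are over 2 libraries. The labels call the libraries biological replicates but give both the same donor identifier, so their spread may be partly technical. Whole glands mix cell types, and in such samples fewer cells of a type and less RNA per cell cannot be told apart.

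The spliceosome is built from snRNAs bound to proteins, the snRNPs. U1 pairs with the start of an intron, U2 with its branch site, and U4 carries U6 into the complex and is released before U6 pairs with the intron start and with U2, while U5 holds the exon ends. A minor spliceosome, in which U11, U12, U4atac and U6atac take the places of U1, U2, U4 and U6 beside the shared U5, removes a small class of introns. U1, U2, U4, U5, U11, U12 and U4atac are made by RNA polymerase II and carry a ring of Sm proteins on a uridine-rich Sm site, whereas U6 and U6atac are made by RNA polymerase III and carry the LSm ring. In mammals these RNAs come from many near-identical gene copies, so the sequences decide which copies a read can be told from.

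The U1 sequences below are the most abundant form, a copy that differs from it at 1 base and the form on chromosome 3 (GENCODE M21 transcripts on mm10, written 5′ to 3′ in DNA letters). Capitals mark the stretch that pairs with the intron start, ACTTACC, and the Sm site, AATTTGT. Rnu1a1 (ENSMUSG00000095969.1) lies at chr11:87422867-87423030 on the plus strand, Gm22513 at chr12:54696782-54696945 on the plus strand and Gm25890 at chr3:96486555-96486719 on the minus strand. Gm22513 carries T60C relative to Rnu1a1, counted from the 5′ end. Gm25890 has 96.4% identity to Rnu1a1 over 165 bases, and C33T separates the named gene Rnu1b1 from it.
Rnu1a1: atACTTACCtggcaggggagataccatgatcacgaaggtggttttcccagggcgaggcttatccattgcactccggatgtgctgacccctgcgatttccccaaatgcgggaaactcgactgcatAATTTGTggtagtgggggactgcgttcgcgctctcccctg
Gm22513: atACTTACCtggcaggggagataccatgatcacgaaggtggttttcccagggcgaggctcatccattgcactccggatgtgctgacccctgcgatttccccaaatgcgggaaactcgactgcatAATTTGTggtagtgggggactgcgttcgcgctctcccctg
Gm25890: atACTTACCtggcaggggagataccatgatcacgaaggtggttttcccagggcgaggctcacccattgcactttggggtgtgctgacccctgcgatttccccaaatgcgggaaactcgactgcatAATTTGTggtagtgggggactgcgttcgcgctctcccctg

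Of U2, both abundant forms and a near copy of the second are shown, with the branch site pairing stretch GTAGTA and the Sm site ATTTTTG in capitals. Rnu2-10 (ENSMUSG00000065944.1) lies at chr11:101658238-101658428, Gm23444 at chr11:83271498-83271688 and Gm24497 at chr1:72244213-72244403, all on the plus strand. Gm23444 carries G109C relative to Rnu2-10, and Gm24497 carries C186A relative to Gm23444.
Rnu2-10: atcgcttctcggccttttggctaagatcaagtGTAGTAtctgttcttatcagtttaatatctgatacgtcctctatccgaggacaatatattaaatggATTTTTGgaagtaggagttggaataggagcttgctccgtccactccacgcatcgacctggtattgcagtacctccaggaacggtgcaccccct
Gm23444: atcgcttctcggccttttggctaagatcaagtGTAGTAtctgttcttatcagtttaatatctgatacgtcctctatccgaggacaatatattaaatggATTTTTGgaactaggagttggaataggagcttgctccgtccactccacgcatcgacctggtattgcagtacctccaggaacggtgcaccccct
Gm24497: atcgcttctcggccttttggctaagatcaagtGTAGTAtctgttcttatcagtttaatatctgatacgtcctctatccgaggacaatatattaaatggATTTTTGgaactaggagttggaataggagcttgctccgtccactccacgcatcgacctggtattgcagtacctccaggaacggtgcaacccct

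Both U4 genes are shown because they differ at 2 bases and can be told apart throughout. Capitals mark GCTAAT, which lies in the region of U4 that pairs with U6, and the Sm site ATTTTTG. Gm24265 (ENSMUSG00000096243.1) lies at chr5:115489459-115489599 and Gm24407 at chr5:115490254-115490394, both on the plus strand, and Gm24265 carries A88G and A99C relative to Gm24407.
Gm24265: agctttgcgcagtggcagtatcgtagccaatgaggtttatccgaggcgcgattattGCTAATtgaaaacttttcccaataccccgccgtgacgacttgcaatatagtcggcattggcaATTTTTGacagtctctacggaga
Gm24407: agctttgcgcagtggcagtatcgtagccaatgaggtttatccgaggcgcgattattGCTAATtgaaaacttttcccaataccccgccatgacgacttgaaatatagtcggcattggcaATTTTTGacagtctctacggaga

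The 3 measured RNAs of the minor spliceosome follow, each from 1 gene. Capitals mark the Sm site TTTTTTG in Rnu11, the branch site pairing stretch GTAAGGA and the Sm site in Rnu12, and the splice site pairing stretch AAGGAGA in Gm25541, the U6atac gene. Rnu11 (ENSMUSG00000077323.1) lies at chr4:132270080-132270213 on the minus strand, Rnu12 (ENSMUSG00000065176.1) at chr15:83149644-83149794 on the plus strand and Gm25541 (ENSMUSG00000080538.1) at chr2:27539805-27539930 on the minus strand.
Rnu11: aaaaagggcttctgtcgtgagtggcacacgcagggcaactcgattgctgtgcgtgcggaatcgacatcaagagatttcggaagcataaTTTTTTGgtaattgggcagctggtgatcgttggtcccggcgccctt
Rnu12: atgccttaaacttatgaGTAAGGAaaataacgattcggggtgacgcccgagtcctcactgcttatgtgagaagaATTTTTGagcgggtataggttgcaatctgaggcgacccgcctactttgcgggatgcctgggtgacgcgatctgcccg
Gm25541: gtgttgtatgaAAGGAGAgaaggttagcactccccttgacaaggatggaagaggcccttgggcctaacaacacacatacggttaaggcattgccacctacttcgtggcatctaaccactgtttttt

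The U1 and U2 genes with counts in both libraries held the functional stretches of their families, read on the transcribed strand. ACTTACC and AATTTGT were both found in 12 of 12 U1 genes with counts, against 22 of 79 other annotated U1 genes of at least 100 bases, and in 3.11% of all 1190 snRNA genes of that length. GTAGTA and ATTTTTG were both found in 12 of 12 U2 genes with counts, against 2 of 11 others, and in 1.34% of all such snRNA genes. Identical copies are counted more than once here, since the 12 U1 genes hold 5 sequences and the 12 U2 genes hold 8. GCTAAT and ATTTTTG were both found in the 2 U4 genes with counts, against 1 of 24 others, and in 0.420% of all, but GCTAAT is part of a motif that placed both in the U4 family, so its presence there is no finding. In U5, U11 and U12 the stretches did not separate genes with counts from the rest. All 11 U5 genes hold CCTTTTA and TTTTTTG, although none reached 1 count in both libraries. The Sm site TTTTTTG is in Rnu11 and in 4 of 4 other U11 genes, and GTAAGGA with ATTTTTG is in Rnu12 and in 2 of 3 other U12 genes. AAGGAGA is in Gm25541 and in 7 of 17 other U6atac genes, but it is a motif that placed Gm25541 in its family. In U1 and U2, identity over the whole sequence followed the same split. U1 genes with counts had 96.4 to 100% identity to Rnu1a1, against a median of 80.5% in the others. U2 genes with counts had 95.3 to 100% identity to Rnu2-10, against a median of 71.7% in the others. Both references are genes with counts, and, counting them, 7 of the 12 U1 and 4 of the 12 U2 genes have the reference sequence. Near copies can be given part of the reads of an abundant form, so this split is no independent finding. Identity of at least 80% had placed most unnamed genes in their family, and the split was not complete, since 11 of the other U1 genes had at least 95% identity. The split did not extend to U5, where none of 11 annotated genes had at least 1 count in both libraries. All 11 have at least 80.2% identity to Rnu5g. In GENCODE M21, Gm25153 lies at chr3:122464727-122464882 inside Bcar3 and resembles U1 at under the 80% identity used to assign a family.

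**Figure D1:**
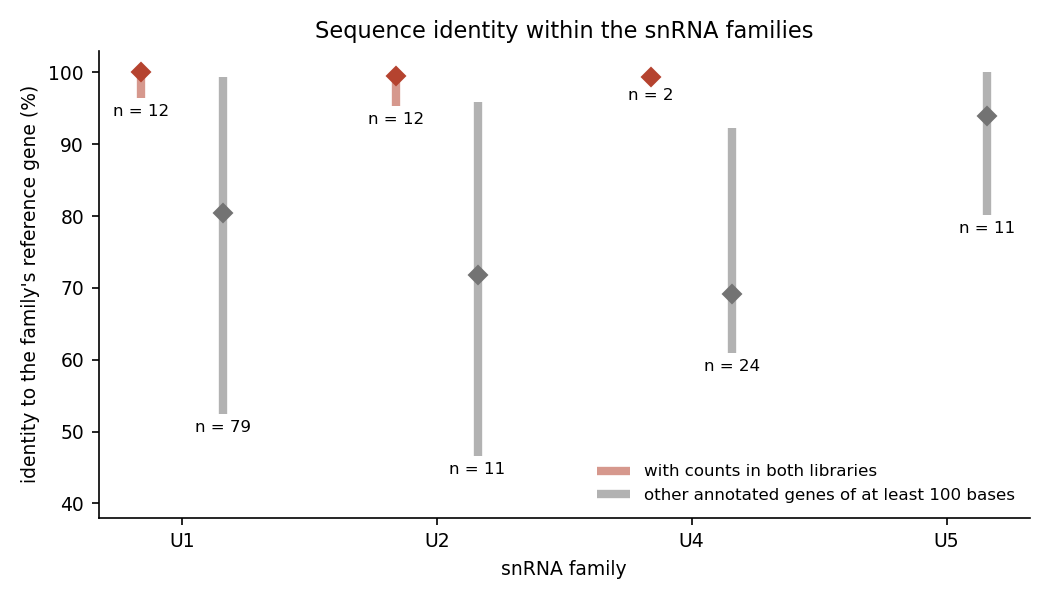
Identity to the family's reference gene (y axis, %) in 4 families, with Rnu1a1, Rnu2-10, Gm24407 and Rnu5g as references. Genes with at least 1 count in both libraries are red and other annotated genes of at least 100 bases are grey. Bars run over the lowest to the highest gene and diamonds mark medians; the U1, U2 and U4 genes with counts sit at 95.3% or above, and no U5 gene is among them.

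Among the measured families, U2 and U1 RNA dominated the snRNA total. This total holds no U5, U6 or U4atac gene, so the shares below leave those RNAs out. Summed over the 30 genes, snRNAs reached 34712 TPM (animal 1) and 19861 TPM (animal 2), which is 27287 ± 10502 TPM (SD, n = 2). TPM is a share of transcripts per length, so a short RNA takes a larger share of TPM than of counts. The same genes made up 0.280% of all expected counts in animal 1 and 0.155% in animal 2 (95% Wilson intervals 0.278 to 0.282% and 0.154 to 0.156%, counting error only). U2 had 16353 and 10888 TPM in animals 1 and 2 and was the most abundant measured family in both, at 51.0 ± 5.45% of the snRNA TPM. U1 followed with 13183 and 6724 TPM, or 35.9 ± 2.91%, and U4 with 4979 and 2182 TPM, or 12.7 ± 2.38%. Within a library the order U2, U1, U4 was the same in both animals, and the shares of these families are further apart than their SDs. The ratio of U2 to U1 was 1.24 in animal 1 and 1.62 in animal 2, and that of U4 to U1 was 0.378 and 0.324. On expected counts, which are not per length, U2 held 61.9%, U1 30.9% and U4 7.05% as means of both animals. The positions at which a 100-base stretch can start, the basis of TPM here, number 65 in Rnu1a1, 92 in Rnu2-10 and 42 in Gm24265.

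**Figure D2:**
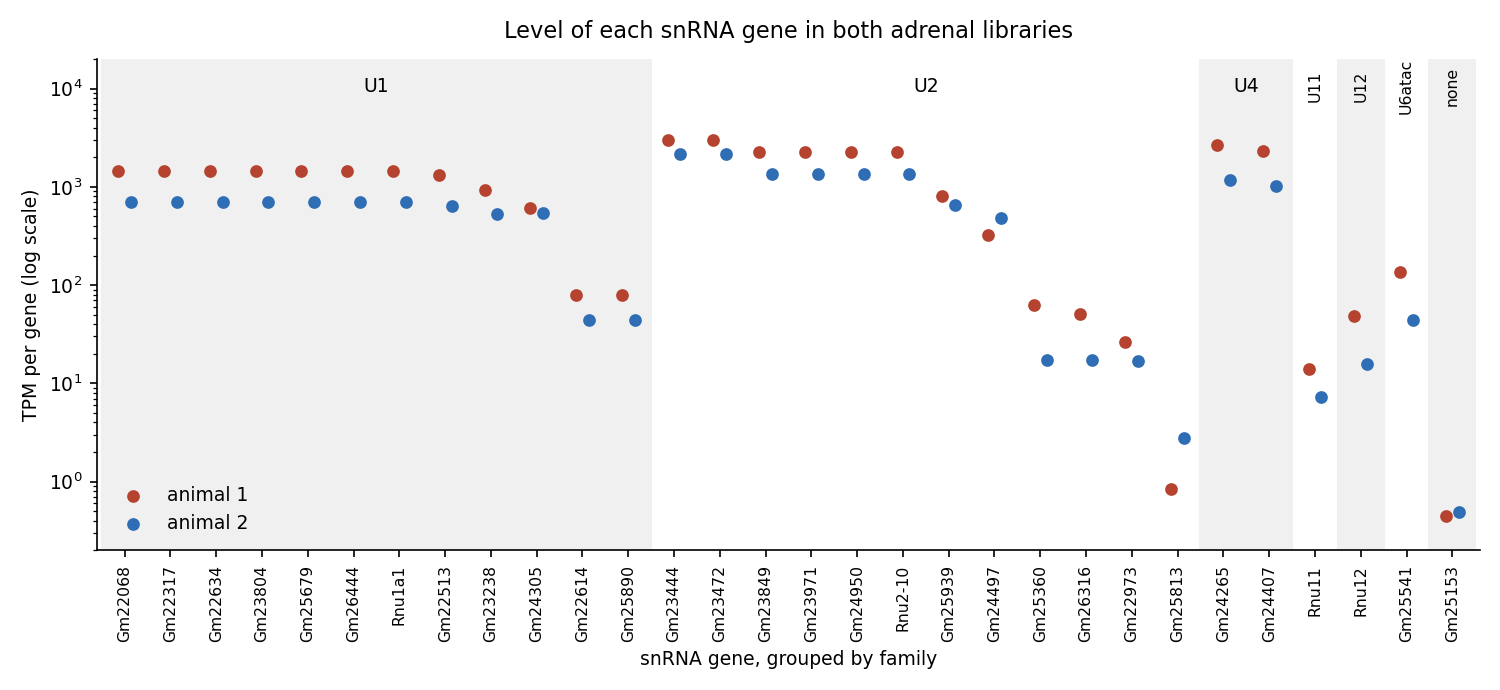
TPM per gene (y axis, log scale) of the 30 snRNA genes, grouped by family on the x axis, in animal 1 (red) and animal 2 (blue); "none" is Gm25153. The 27 genes with the red point above the blue one are higher in animal 1, and genes of identical sequence stand at 1 height.

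In the U1 family, 7 genes of 1 sequence held most of the RNA. Rnu1a1, Gm22068, Gm22317, Gm22634, Gm23804, Gm25679 and Gm26444 each had 3671 expected counts (1453 TPM) in animal 1 and 1619 (702 TPM) in animal 2. Their sum was 25700.3 and 11335 counts, or 77.1% and 73.1% of the U1 counts. The value of a single gene of the set is an equal division of this sum, since no 100-base stretch of it is found in 1 gene alone. Gm22513, the copy with T60C, had 3322 counts (1315 TPM) in animal 1 and 1488 (645 TPM) in animal 2. Of its 65 stretches 60 were its own. Per gene it stood at 0.905 of an Rnu1a1 copy in animal 1 and 0.919 in animal 2, a ratio that differed little between the libraries (0.912 ± 0.010). Gm23238 on chromosome 19, with G12A, A23T, C153T and C160A, had 2352 and 1231 counts in animals 1 and 2. Gm24305, with A26G, had 1533 and 1253 counts, and its ratio to an Rnu1a1 copy was 0.418 in animal 1 but 0.774 in animal 2. Only 26 of its 65 stretches were its own. The chromosome 3 genes Gm22614 and Gm25890, identical to each other, had 203 counts each (79.1 TPM) in animal 1 and 104 each in animal 2, 1.22% and 1.34% of the U1 counts.

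In the U2 family, 2 sequences that differ at 1 base, G109C, took most of the counts. The 4 identical genes Rnu2-10, Gm23849, Gm23971 and Gm24950 each had 8062 counts (2255 TPM) in animal 1 and 4406 (1349 TPM) in animal 2. Gm23444 and Gm23472, which share the other sequence although they lie on chromosomes 11 and 1, each had 10851 counts (3034 TPM) in animal 1 and 7016 (2149 TPM) in animal 2. As sums, the first sequence held 55.1% and 49.6% of U2 counts and the second 37.1% and 39.5%. No stretch of the second sequence was its own. Its summed expected counts were 21702 and 14032 in animals 1 and 2. Its deposited posterior mean, another estimate in the same table, summed to 17854 and 10493, so its share depends on how reads were divided. Gm25939, with T69C, C78T and G109C, had 2873 and 2130.4 counts, and 78 of its 92 stretches were its own. Gm24497 had 1151 counts in animal 1 and 1588 in animal 2 and was the 1 snRNA sequence higher in animal 2 beyond counting error (a ratio of animal 1 over animal 2 of 0.684, 95% counting interval 0.634 to 0.739). The deposited posterior mean of Gm24497 was 4999 and 5127 counts, and 6 of its 92 stretches were its own. Its level thus depends on how reads were divided between it and Gm23444. The remaining U2 genes were lower. Gm25360 had 224 and 56.1 counts, Gm26316 had 182 and 56.5, Gm22973 had 94.03 and 55.0, and Gm25813 had 3 and 9 in animals 1 and 2.

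The U4 genes lie within 0.936 kb on chromosome 5. Gm24265 had 4327 counts (2651 TPM) in animal 1 and 1741 (1168 TPM) in animal 2. Gm24407 had 3801 counts (2328 TPM) in animal 1 and 1511 (1014 TPM) in animal 2. All 42 stretches of each were its own. Gm24265 exceeded Gm24407 1.14-fold in animal 1 and 1.15-fold in animal 2 (1.15 ± 0.010 as a ratio of counts), a difference larger than the spread between the libraries.

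U11 and U12 were far below U1 and U2. Gm25541, the U6atac gene, had 142 counts (135 TPM) in animal 1 and 42 (43.8 TPM) in animal 2. Rnu12 had 97 counts (47.99 TPM) and 29 (15.7 TPM), and Rnu11 had 19 (13.97 TPM) and 9 (7.25 TPM). The measured major snRNAs (U1, U2 and U4) exceeded the measured minor ones 175-fold in animal 1 and 296-fold in animal 2 by TPM, a log2 ratio of minor over major of -7.83 ± 0.54 that leaves out U6 and U4atac, which had no gene with counts in both libraries. As measured, the U6atac gene with 142 and 42 counts stood above all U6 genes together, with 0 and 3. On expected counts this log2 ratio was -9.002. U12 stood 341-fold below U2 in animal 1 and 693-fold below it in animal 2. U11 stood 944-fold below U1 in animal 1 and 927-fold below it in animal 2, from 19 and 9 counts. The TPM ratio of U6atac to U12 was 2.82 and 2.79 in animals 1 and 2, although each of these RNAs was over 3-fold higher in animal 1.

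U5, U6 and U4atac gave almost no counts. The gene table lists no count for any gene under 100 bases, and the number of stretches of 100 bases has a median of 8 over the U6 genes and 17 over the U5 genes. The 673 annotated U6 genes, 604 of them at least 100 bases long, summed to 0 counts in animal 1 and 3 in animal 2. The 11 U5 genes summed to 3 and 1.92 counts, the U4atac gene (26 stretches) had 0 in both, and the 58 U7 genes (U7 serves histone mRNA processing and is not spliceosomal), all under 100 bases, had 0. Where 0 was counted for genes of at least 100 bases, up to 3 counts remain possible (0.0839 CPM in animal 1 and 0.0854 in animal 2). This limit is not per length, so it does not bound the RNA level of genes with few stretches. No limit follows for U7, since no gene under 100 bases had a count. Gm25541, of similar length to the U4atac gene with 27 stretches, had 142 and 42 counts. The part of gene length in the missing counts was not tested. In the second transcript table, made from the same libraries, all 1383 listed snRNA transcripts had 0 estimated counts in both animals. Its shortest transcript with a count was 268 bases long in animal 1 and 258 in animal 2, while the longest annotated snRNA has 200 bases. The snRNA values thus rest on 1 of the 2 quantifications.

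How exactly a copy was measured followed its sequence. The 30 genes hold 19 sequences, of which 4 are shared by 15 genes, and in each of these 4 sets the genes have equal counts to the last decimal. The deposited posterior SD of the count is the uncertainty from dividing reads between genes, given here as a percentage of the posterior mean count. For these 15 genes it was 21.7 to 70.8% (median 32.7%) in animal 1 and 25.2 to 67.2% (median 53.7%) in animal 2. For the 9 genes whose every 100-base stretch is their own it was at most 1.67% (median 0.028%) in animal 1 and at most 0.888% (median 0.030%) in animal 2. No stretch was shared with a gene of another biotype. The genome reference carries C57BL/6J sequence, and whether CAST/EiJ copies differ at the bases that separate these genes was not tested.

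**Figure D3:**
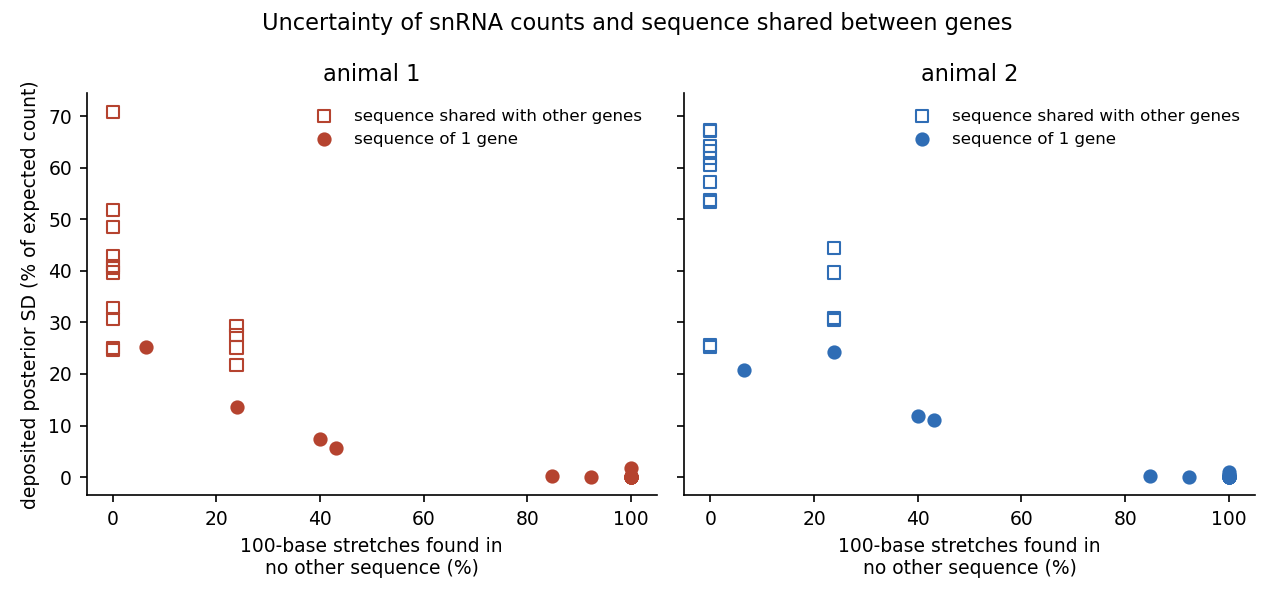
Deposited posterior SD as a percentage of the posterior mean count (y axis) against the percentage of a gene's 100-base stretches found in no other sequence (x axis). The 30 snRNA genes are shown in animal 1 (left) and animal 2 (right), and the y axis label names the expected count instead. Open squares are genes of shared sequence, at 21.7% or above in animal 1 and 25.2% or above in animal 2; the filled points at 100% lie at 1.67% or below.

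Most snRNA genes were higher in animal 1. After TMM scaling of the expected counts 27 of 30 were higher in animal 1, or 16 of 19 when genes of identical sequence are summed. The 30 genes had a median log2 ratio of animal 1 over animal 2 of 0.92. Where the mean count reached 10, 27 of 28 snRNA genes were higher in animal 1, with a median of 1.02. Over all 17012 genes with that mean count 51.3% were higher there, with a median of 0.01. U4 had a log2 ratio of 1.24, U1 of 1.02, U2 of 0.64, U6atac of 1.66, U12 of 1.64 and U11 of 0.95. A rule of at least 2-fold, a mean count of at least 50 and deposited TPM intervals that do not overlap was met by 3.46% of 13569 genes of all kinds (1.75% with the higher value in animal 1). Of the snRNA genes 27 had that mean count and 7 met the rule, all higher in animal 1. Without the interval condition 14 met it, all higher in animal 1, against 4.18% of all genes (2.23% with the higher value in animal 1). Under spike-in scaling 6 met the full rule, against 4.02% of all genes (1.12% with the higher value in animal 1). The 7 genes of the Rnu1a1 sequence make up the difference between 14 and 7 under TMM scaling, since their wide deposited intervals overlap although their sum was 2.14-fold higher in animal 1 (95% counting interval 2.09 to 2.19).

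The single sequences differed in size of ratio beyond counting error. Gm25360 was 3.78-fold higher in animal 1 (95% counting interval 2.81 to 5.16), Gm25541 3.19-fold (2.25 to 4.62), Rnu12 3.16-fold (2.07 to 4.96) and Gm26316 3.07-fold (2.26 to 4.22). Both U4 genes were close to each other, Gm24407 at 2.38-fold (2.24 to 2.52) and Gm24265 at 2.35-fold (2.22 to 2.48), and Gm22513 stood at 2.11-fold (1.98 to 2.24). Smaller ratios were seen for the Rnu2-10 sequence (1.73-fold), the Gm23444 sequence (1.46-fold) and Gm25939 (1.27-fold, 1.204 to 1.35). Rnu11 had 1.99-fold with an interval of 0.859 to 5.002, so no direction can be given for it at this depth. Counting intervals cover neither the spread between animals nor the division of reads between copies. Scaled by the spike-in totals the family log2 ratios were 1.02 for U4, 0.80 for U1, 0.41 for U2, 1.44 for U6atac, 1.42 for U12 and 0.73 for U11, while the median over all genes moved to -0.21. Gm24305, at a log2 ratio of 0.21, turned to -0.01 under that scaling.

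**Figure D4:**
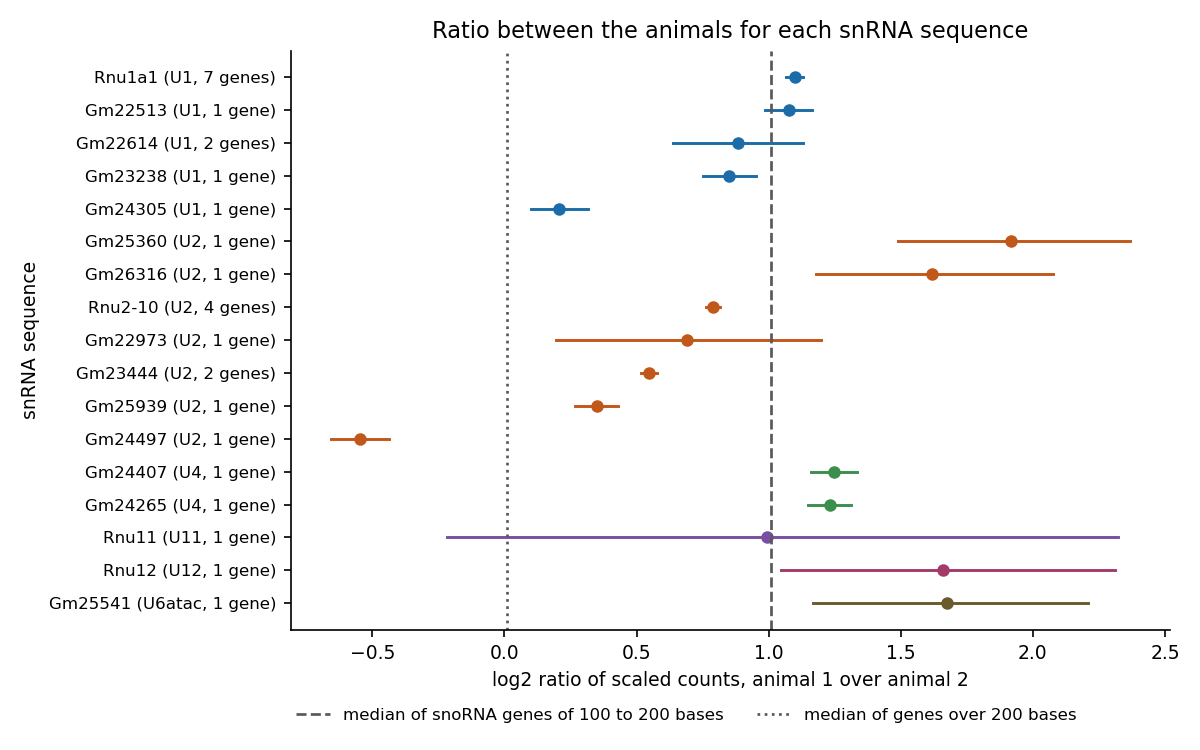
Log2 ratio of TMM-scaled counts, animal 1 over animal 2 (x axis), for the 17 snRNA sequences with a mean count of at least 10, coloured by family; points are sums over genes of identical sequence and bars are 95% counting intervals. Of them 16 lie above 0 and Gm24497 below; the dashed and dotted lines are the medians of snoRNA genes of 100 to 200 bases (1.01) and of genes over 200 bases (0.01).

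Small nucleolar RNAs of similar length showed a shift of similar size, while other short RNAs did not all do so. Where the mean count reached 10, the 59 small nucleolar RNA (snoRNA) genes of 100 to 200 bases had a median log2 ratio of 1.01, with 51 of them higher in animal 1, beside 1.02 for the 28 snRNA genes. Small Cajal body RNAs, which guide modification of snRNAs, had a median of 0.36 over 7 genes, and genes labelled misc_RNA of this length a median of -1.14 over 6, with 2 of them higher in animal 1. All 89 genes of 100 to 200 bases other than these snRNAs had a median of 0.70, with 67 higher in animal 1. The 16895 genes over 200 bases had a median of 0.01. Tissue markers also differed between the gland samples. Markers of adrenal cortex (6 of 6, summing to 15553 TPM against 20001 TPM in animals 1 and 2) and medulla (4 of 4, 1204 and 956 TPM) were present in both, and kidney markers were under 1 TPM. Fat markers summed to 1107 and 526 TPM, and 4 striated muscle markers to 97.7 and 0.09 TPM, with Ckm and Myh4 at 0 in animal 2. Total expected counts were 35769717 and 35135703. The part of these tissues and of gene length in the snRNA ratios was not tested, and library preparation cannot be told apart from the animals.

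Copies lay in clusters that held most of each family's counts. In mm10, 7 U1 genes lie within 41.8 kb on chromosome 12 (54696782 to 54738622) and had 69.7% of U1 counts in animal 1 and 69.9% in animal 2. Rnu1a1 and Gm22068 span 4.01 kb on chromosome 11 and had 22.0% and 20.9%. Of the U2 genes, 5 lie within 53.6 kb on chromosome 11 (101604850 to 101658428) and 4 within 29.0 kb on chromosome 1 (72226240 to 72255198). The chromosome 1 set had 25.8% of U2 counts in animal 1 and 30.4% in animal 2. Because identical copies receive equal counts, these shares do not show which copy was transcribed. An annotated gene on the same strand spanned 7 of 30 snRNA genes (23.3%, exact 95% interval 9.93 to 42.3%), against 22.2% of the other 1355 snRNA genes. A gene on the opposite strand alone spanned 1 of 30 (Rnu11, exact 95% interval 0.0844 to 17.2%), against 22.4% of the other snRNA genes. A closer set is the 544 other snRNA genes of at least 100 bases in the same families or in none. Of these, 28.3% lay inside a gene on the same strand and 18.4% inside one on the opposite strand alone. Both intervals treat the 30 genes as independent, which clustered copies are not, so they are too narrow to show a difference. Host levels were far below those of abundant snRNAs. Tex14, a testis gene that spans Rnu1a1 and Gm22068, had 4 and 3 counts, and the long non-coding D230017M19Rik, which spans 3 U2 genes, had 8 and 14. Bcar3 had 1703 and 1839 counts, while Gm25153 inside it had 1 in each library.

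At the threshold, the lowest genes kept were Gm25153 (1 and 1 counts in animals 1 and 2), Gm25813 (3 and 9) and Rnu11 (19 and 9). The nearest genes left out were the U5 gene Gm25313 (1 and 0.5 counts) and the U1 genes Gm24830 and Gm26232 (16.9 and 0 each). At least 1 count in 1 library alone was found in 31 snRNA genes, 18 in animal 1 with 92.2 counts in sum and 13 in animal 2 with 19.6. Of these 31, 18 lie inside a gene on the same strand, 7 of those in animal 1 and 11 of those in animal 2. Over all 1355 snRNA genes not kept the share is 22.2%. The U1 genes Rnu1b1 and Rnu1b2 had 9.19 counts each in animal 1 and 0 in animal 2, and Rnu1b6, Gm24830 and Gm26232 had 16.9 each and 0. Together these 5 chromosome 3 genes, close in sequence to Gm25890, had 69.1 counts in animal 1 and 0 in animal 2, beside 406 and 208 for Gm22614 and Gm25890.

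The protein genes of snRNPs did not share the shift. Over 10 lists, 121 of 126 genes were found, all with a mean count of at least 50; 0 of them met the 2-fold rule, against 3.46% of all genes, and 47 of 121 were higher in animal 1, against 51.3% of the 17012 genes of all kinds. The median log2 ratio was -0.06, or -0.28 under spike-in scaling, where all genes had -0.21. The Sm core, the ring shared by most snRNPs, summed to 261 TPM (animal 1) and 287 TPM (animal 2), with Snrpg at 93.8 and 116 TPM, Snrpb at 46.6 and 51.4 and Snrpe at 29.6 and 32.7. The 8 U1 proteins had the lowest median, -0.43, with 1 gene higher in animal 1. Snrnp70, which binds the first stem loop of U1, had 65.8 and 98.2 TPM in animals 1 and 2, and Luc7l2, a splice site selection factor, had 30.5 and 45.8 TPM. Snrpa, which binds another U1 stem loop, had 24.4 and 19.8 TPM. U1 RNA was higher in animal 1 and the median U1 protein gene lower there, under TMM and under spike-in scaling alike (medians of -0.43 and -0.65 for the proteins).

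U2 proteins summed to 291 and 336 TPM in animals 1 and 2, with Sf3b2, a subunit of the branch site complex, at 51.9 and 52.1 TPM, and both subunits of the factor that recognises the end of the intron, U2af2 and U2af1, at 37.1 and 47.1 TPM and at 32.4 and 45.0 TPM. U4/U6 proteins summed to 104 and 115 TPM, led by Snu13, which binds a bend in U4, at 20.9 and 29.9 TPM, Sart1 at 20.8 and 25.6 and Snrnp27 at 18.9 and 17.1. U5 proteins summed to 173 and 180 TPM, with the core protein Prpf8 at 38.7 and 44.3 TPM, Ddx23 at 22.4 and 25.3 and the GTPase Eftud2 at 20.7 and 21.2, although the U5 RNA had almost no counts. The LSm ring of U6 summed to 115 and 109 TPM, with Lsm6 at 42.8 and 41.2, Lsm4 at 27.6 and 22.9 and Lsm7 at 10.8 and 10.4. Proteins of the minor spliceosome summed to 101.6 and 108 TPM over 12 genes. The U4/U6 sums are over 8 genes, so the sums of these lists do not compare levels per gene. Among them Zcrb1 had 24.8 and 29.3 TPM, Zmat5 19.4 and 13.5 and Zrsr1 10.8 and 13.96. Of the measured minor snRNAs U6atac was highest, at 135 and 43.8 TPM, far below U4 RNA at 4979 and 2182 TPM.

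Genes that make and mature snRNAs were detected in both libraries. The transcription list had 84.3 and 101 TPM in sum in animals 1 and 2, with Snapc2, a subunit of the snRNA promoter complex, at 9.98 and 7.81 TPM, the TATA-binding protein Tbp at 7.57 and 9.60 and Bdp1, a polymerase III factor, at 6.39 and 9.97. Integrator, which cleaves the 3′ end of polymerase II snRNAs, summed to 146 and 147 TPM, with Ints3 at 31.9 and 29.9, Ints4 at 16.99 and 15.7 and Ints1 at 13.7 and 16.2. Assembly and maturation genes summed to 227 and 250 TPM, with Strap at 30.4 and 40.4, Gemin7 at 23.9 and 25.7 and Wdr77 at 15.9 and 20.1. The medians of the U5 (0.01), LSm (0.07) and Integrator (0.01) lists were above 0 with TMM and below it with spike-in scaling (-0.21, -0.15 and -0.21). In all 10 lists the median was lower than the log2 ratio of any of the 6 snRNA families under the same scaling.

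**Figure D5:**
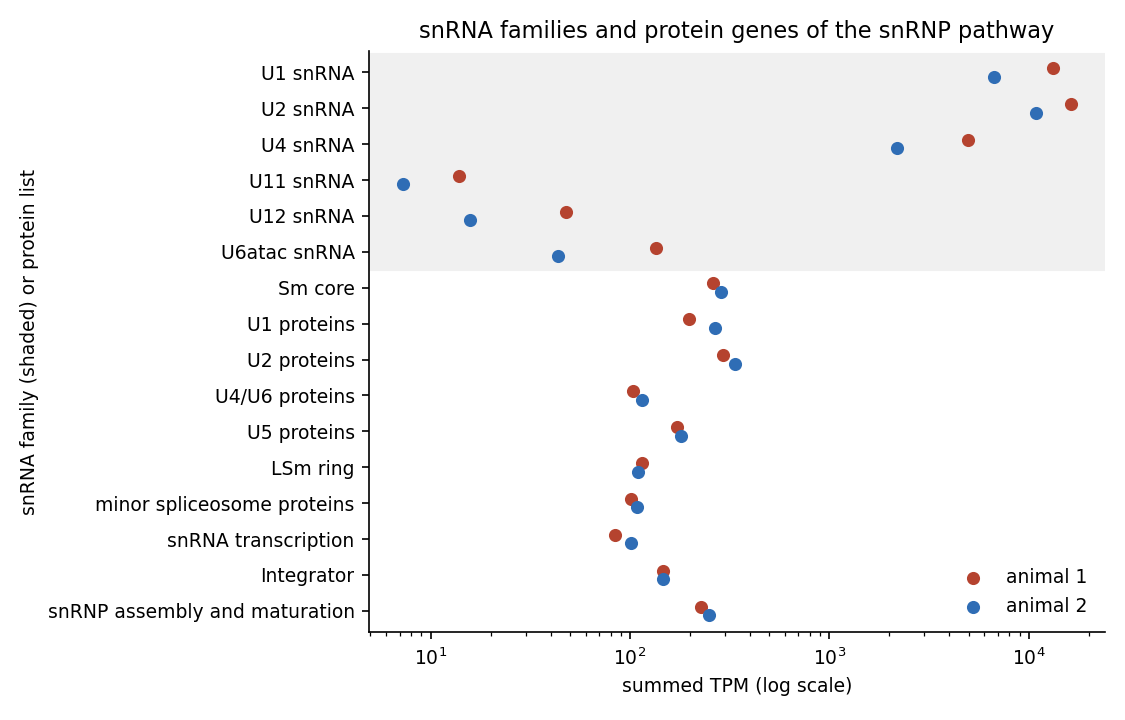
Summed TPM (x axis, log scale) of 6 snRNA families (shaded) and 10 lists of protein genes in animal 1 (red) and animal 2 (blue). The snRNA families span 7.25 TPM (U11, animal 2) to 16353 TPM (U2, animal 1) with animal 1 to the right in each, whereas the protein lists lie between 84.3 and 336 TPM with both animals close together.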

How the data were processed

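Total RNA-seq of 2 adrenal glands, 1 library each, was used as deposited. The gene tables hold expected counts and TPM, per the file headers, on mm10 with GENCODE M21; their column names are those of RSEM. The second transcript tables deposited by the authors hold estimated counts and TPM under kallisto's column names. The sources used here name neither programs nor versions. Effective length equals length minus 99 for nearly all genes of at least 100 bases. Entries named by a number (26248) and 96 spike-ins were left out of gene results. The sum of expected counts, spike-ins included, was 35769717 in animal 1 and 35135703 in animal 2.

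Families were set by symbol, by sequence motifs for U4, U4atac and U6atac, or else by BLAST 2.17.0 (at least 80% identity over at least 50% of the gene). Expected counts were rounded, scaled with TMM (edgeR 4.0.16, R 4.3.3) and compared with 0.5 added; DESeq2 1.42.0 size factors and spike-in totals were alternatives. Fold intervals per sequence are exact and conditional on the 2 counts, without the added 0.5. They, the Wilson intervals and the limit of 3 counts cover counting error alone, because the reads carry no molecular identifiers and are not independent. Scaling and the 2-fold rule without its interval condition were tested on simulated counts, which held no reads shared between copies. Named genes are those with an Rnu symbol, the 5 highest of each family, those at least 2-fold apart, 3 on each side of the threshold and the 3 highest of each protein list; genes of shared sequence and hosts were added after their values were seen. Members, lists and rules were chosen with earlier results of these data known. The labels call the libraries biological replicates 1 and 2 but give both the same donor identifier, so the spread between them may be partly technical.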

Additional observations from a re-analysis of the deposited data

How the results depend on the processing

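The snRNA values rest on the gene table. In the second transcript table the number of snRNA genes with at least 1 count in both libraries was 0, against 30. The summed TPM was 0, against 27287. By counts in place of TPM the shares of the snRNA total were 61.9% for U2, 30.9% for U1, 7.05% for U4, 0.109% for U6atac and 0.0178% for U11, and the log2 ratio of minor over major snRNA was -9.002, or -8.997 with posterior mean counts (added after seeing the data), against -7.83. Without the interval condition 14 genes were at least 2-fold apart, against 7, and with protein-coding hosts alone 4 genes lay inside a gene on the same strand, against 7. With spike-in totals 6 genes met the 2-fold rule, against 4.02% of all genes, and the log2 ratio of Gm24305 turned to -0.013. Leaving out either animal gave summed TPM of 19861 to 34712 and a minor over major log2 ratio of -8.21 to -7.45. A minimum of 10 counts left 27 genes. No paired analysis was possible because the series has 1 group. No snRNA ratio between the 2 tables was computed, since all snRNAs are at 0 in the second. Depth limits Rnu11, Gm25813 and Gm25153, and 1 library per animal limits every ratio.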
